A study of Mus musculus with 12 samples.

Results

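The mitochondrial respiratory chain and ATP synthase are built largely from proteins encoded in the nucleus, and the messenger RNAs of these nuclear subunits were measured in the marrow of mice that lack Fanconi anemia genes. Subunit genes were picked by their symbols: Nduf followed by a, b, c, s or v and a digit (complex I), Sdha to Sdhd (complex II), Uqcr and Cyc1 (complex III), Cox4 to Cox8 (complex IV) and Atp5 (complex V, the ATP synthase). This gave 82 genes among the 18193 on the array, namely 35 of complex I, 4 of complex II, 9 of complex III, 17 of complex IV and 17 of complex V. The rule used symbols and no measured value, but it was chosen with earlier results of these data known. Each gene was read on its single-symbol probe set with the highest mean, and 78 of the 82 were bright enough to be tested, with 34, 4, 9, 14 and 17 in complexes I to V. Ndufb4, Cox7a1, Cox7b2 and Cox8b were too dim on the probe set used and were not tested. For Ndufb4, a probe set shared with Ndufb4b and Ndufb4c was left out because it carries several symbols.

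The marrow came unfractionated and uncultured from tibia and femur. There were 3 wild-type C57Bl/6 mice, 3 mice nullizygous for Fancc (Fancc-/-), 3 nullizygous for Fancg (Fancg-/-) and 3 nullizygous for both (Double Fancc-/-//Fancg-/-, called double knockout here), with 1 Affymetrix array per mouse and no pooled RNA. All groups were amplified from 2 µg of RNA except for the array of Fancg-/- replicate 3, which had 0.91 µg. Age, sex and the strain background of the knockout mice are not given in the sources used here. The products of Fancc and Fancg belong to a nuclear complex that helps repair crosslinked DNA, and the design asks how loss of either or both alters marrow expression.

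As background, complexes I and II pass electrons from NADH and succinate to coenzyme Q, complex III passes them to cytochrome c, and complex IV passes them to oxygen. Complexes I, III and IV pump protons as they do so, and complex V uses the proton gradient to make ATP. Nuclear genes supply all subunits of complex II and most of the others. A few complex IV subunits have isoforms known for heart and skeletal muscle, lung or testis beside a form made in most tissues. Maturing red cells lose their mitochondria, and B cell precursors keep them.

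Nuclear respiratory chain promoters are known for sites of the factors NRF1, GABP (an ETS factor) and YY1, and these letters were looked up in the RefSeq windows (GRCm38.p6) from 250 bases before to 50 bases after each start. A total of 66 of the 82 genes had an entry, with 71 windows, beside 32851 windows of all genes. On either strand, the NRF1 core GCATGCGC stood in 12.7% of the respiratory chain windows and 2.71% of all windows. The ETS core CCGGAAG stood in 23.9% and 8.86%, and the YY1 core AAGATGGC in 12.7% and 2.75%. The GC box GGGCGG was found in 40.8% of these windows and 35.7% of all, and the TATA letters TATAAA in 12.7% and 13.6%. NRF1, ETS and YY1 letters were thus more frequent in these windows than over all genes, while GC box and TATA letters were close to the general share. A match of letters is a description of the sequence.

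The 250 bases before the start are shown for the 3 genes that passed the test in a comparison with wild type (Cox6b2, Cox5b and Ndufa5) and for Cox6b1 and Cox6a1, the forms of the 6b and 6a subunits made in most tissues. Capitals mark matches of the letters above on either strand. Cox6b2 (chr7:4753095-4753344, minus strand) had a GC box, with its first base at -193 from the start. Cox6b1 (chr7:30626115-30626364, minus strand) had an ETS core at -28. Cox6a1 (chr5:115348959-115349208, minus strand) had overlapping NRF1 cores at -162 and -160, GC boxes at -139 and -44 and an ETS core at -16. Cox5b (chr1:36691237-36691486, plus strand) and Ndufa5 (chr6:24527691-24527940, minus strand) had none of these letters in the stretch shown. Ndufa5 is still among the genes counted above with a GC box, which lies outside this stretch. Where a gene had several starts, the most upstream is shown.
Cox6b2: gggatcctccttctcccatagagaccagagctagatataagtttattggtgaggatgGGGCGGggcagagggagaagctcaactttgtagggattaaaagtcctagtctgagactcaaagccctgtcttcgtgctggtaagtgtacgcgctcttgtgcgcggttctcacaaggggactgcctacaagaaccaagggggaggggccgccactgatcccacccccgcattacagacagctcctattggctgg
Cox6b1: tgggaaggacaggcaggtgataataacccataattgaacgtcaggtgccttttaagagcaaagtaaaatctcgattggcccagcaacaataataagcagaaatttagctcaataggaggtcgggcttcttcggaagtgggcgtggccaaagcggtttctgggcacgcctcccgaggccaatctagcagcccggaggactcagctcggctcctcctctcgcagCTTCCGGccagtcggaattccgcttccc
Cox6a1: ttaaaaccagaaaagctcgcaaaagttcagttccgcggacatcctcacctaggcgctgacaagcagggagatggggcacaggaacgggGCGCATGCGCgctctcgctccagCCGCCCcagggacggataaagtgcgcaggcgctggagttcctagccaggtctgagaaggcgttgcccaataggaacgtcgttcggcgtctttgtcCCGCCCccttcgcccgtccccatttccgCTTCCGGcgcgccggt
Cox5b: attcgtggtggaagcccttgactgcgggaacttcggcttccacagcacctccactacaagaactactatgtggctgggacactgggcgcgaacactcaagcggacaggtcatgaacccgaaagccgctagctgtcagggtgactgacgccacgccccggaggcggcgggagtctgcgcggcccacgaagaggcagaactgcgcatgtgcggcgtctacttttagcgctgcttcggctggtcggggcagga
Ndufa5: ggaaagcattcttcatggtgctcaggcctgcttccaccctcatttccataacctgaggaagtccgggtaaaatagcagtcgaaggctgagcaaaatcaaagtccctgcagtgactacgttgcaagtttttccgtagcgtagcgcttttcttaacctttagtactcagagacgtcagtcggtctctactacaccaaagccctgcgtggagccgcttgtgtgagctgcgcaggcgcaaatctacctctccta

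Some properties of the series bear on all results. Array medians lay between 4.79 and 4.87 on the log2 scale, and arrays correlated within a group at 0.954 (lowest, Fancc-/-) to 0.993 (highest, wild type). Fancg signal was 6.80 to 6.86 in wild type, 6.00 to 6.64 on the arrays labelled Fancg-/- and 5.61 to 5.83 in the double knockout, while Fancc signal was not lower in Fancc-/- mice (5.96 to 6.17, against 5.90 to 6.18 in wild type). Whether these probes lie in the deleted parts is not known. Xist, the RNA of the inactive X chromosome, was at 11.19 to 12.23 in wild type and Fancc-/- and at 5.99 to 7.39 in the double knockout, and Eif2s3y, of the Y chromosome, was at 2.89 to 3.30 and at 8.81 to 9.35. For the double knockout set against wild type or Fancc-/-, genotype and sex cannot be told apart. Among the arrays labelled Fancg-/-, replicate 2 had the double-knockout pattern (Xist 7.34, Eif2s3y 9.09) and the lowest Fancg signal of the 3, at 6.00. Replicates 1 and 3 carried both signals at once (Xist 11.31 and 10.75, Eif2s3y 7.64 and 5.78), with Fancg at 6.55 and 6.64. Every comparison that uses these arrays, including the interaction below, is thus also mixed with differences in Xist and Eif2s3y signal. Markers of marrow cells moved too. In Fancc-/- 15 of 20 erythroid markers rose and in the double knockout 6, and 16 of 19 B cell markers fell in each. These are 75%, 30% and 84.2%, where 2.18% and 2.27% of all genes rose and 2.36% and 3.02% fell. The erythroid list had a median change of 0.7 and the B cell list -1.39 on the arrays labelled Fancg-/-. There 0 genes of either passed in limma, and 18 erythroid markers were higher and 17 B cell markers lower at an unadjusted p under 0.05. These are 90% and 89.5%, where 3.34% of all genes were higher and 3.65% lower. On the arrays labelled Fancg-/- the 9 markers of stroma, bone and vessels had a median change of 1.33 with 8 higher. There the 11 of stem and progenitor cells had -0.48 with 10 lower. In both lists 0 genes passed the test in limma on these arrays. At an unadjusted p under 0.05, 6 of the first list were higher and 4 of the second lower. These are 66.7% and 36.4%, where 3.34% of all genes were higher and 3.65% lower. In whole marrow, fewer cells of a type and less RNA per cell cannot be told apart, and the part of these shifts in the values that follow was not tested.

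Transcript levels of the respiratory chain moved little with genotype. In Fancc-/- marrow 2 of the 78 genes rose and 0 fell, both of complex IV: Cox6b2 and Cox5b. That is 2.56% of these genes, where 2.18% of all 11906 genes tested rose and 2.36% fell. In the double knockout 1 gene rose, Ndufa5 of complex I, and 0 fell (1.28%, where 2.27% of all genes rose and 3.02% fell). On the arrays labelled Fancg-/- 0 of 78 rose or fell, where 0.0084% of all genes rose and 0.042% fell. The shares that rose were near those of all genes, so these counts do not set the respiratory chain apart.

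Changes are log2 differences of group means from limma, with standard error (SE) and a p adjusted by Benjamini-Hochberg over all genes tested, and called below 0.05. At an unadjusted p under 0.05, 9 genes were higher and 5 lower in Fancc-/-, 5 higher and 1 lower on the arrays labelled Fancg-/-, and 12 higher and 1 lower in the double knockout. These are 11.5% and 6.41%, 6.41% and 1.28%, and 15.4% and 1.28% of the 78 genes, where 8.53% of all genes tested were higher and 11.2% lower in Fancc-/-, 3.34% and 3.65% on the arrays labelled Fancg-/- and 10.5% and 13.7% in the double knockout. The changes were narrowly bounded. The 95% interval of the change lay within 1.5-fold either way for 74 of 78 genes in Fancc-/-, 75 on the arrays labelled Fancg-/- and 70 in the double knockout, that is 94.9%, 96.2% and 89.7%. Among all genes tested the shares were 58.7%, 69.7% and 56.2%. The median SE was 0.11 for these genes and 0.15 for all genes. Most of these genes were far brighter than the array median, and the part of signal level in these shares was not tested.

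**Figure D1:**
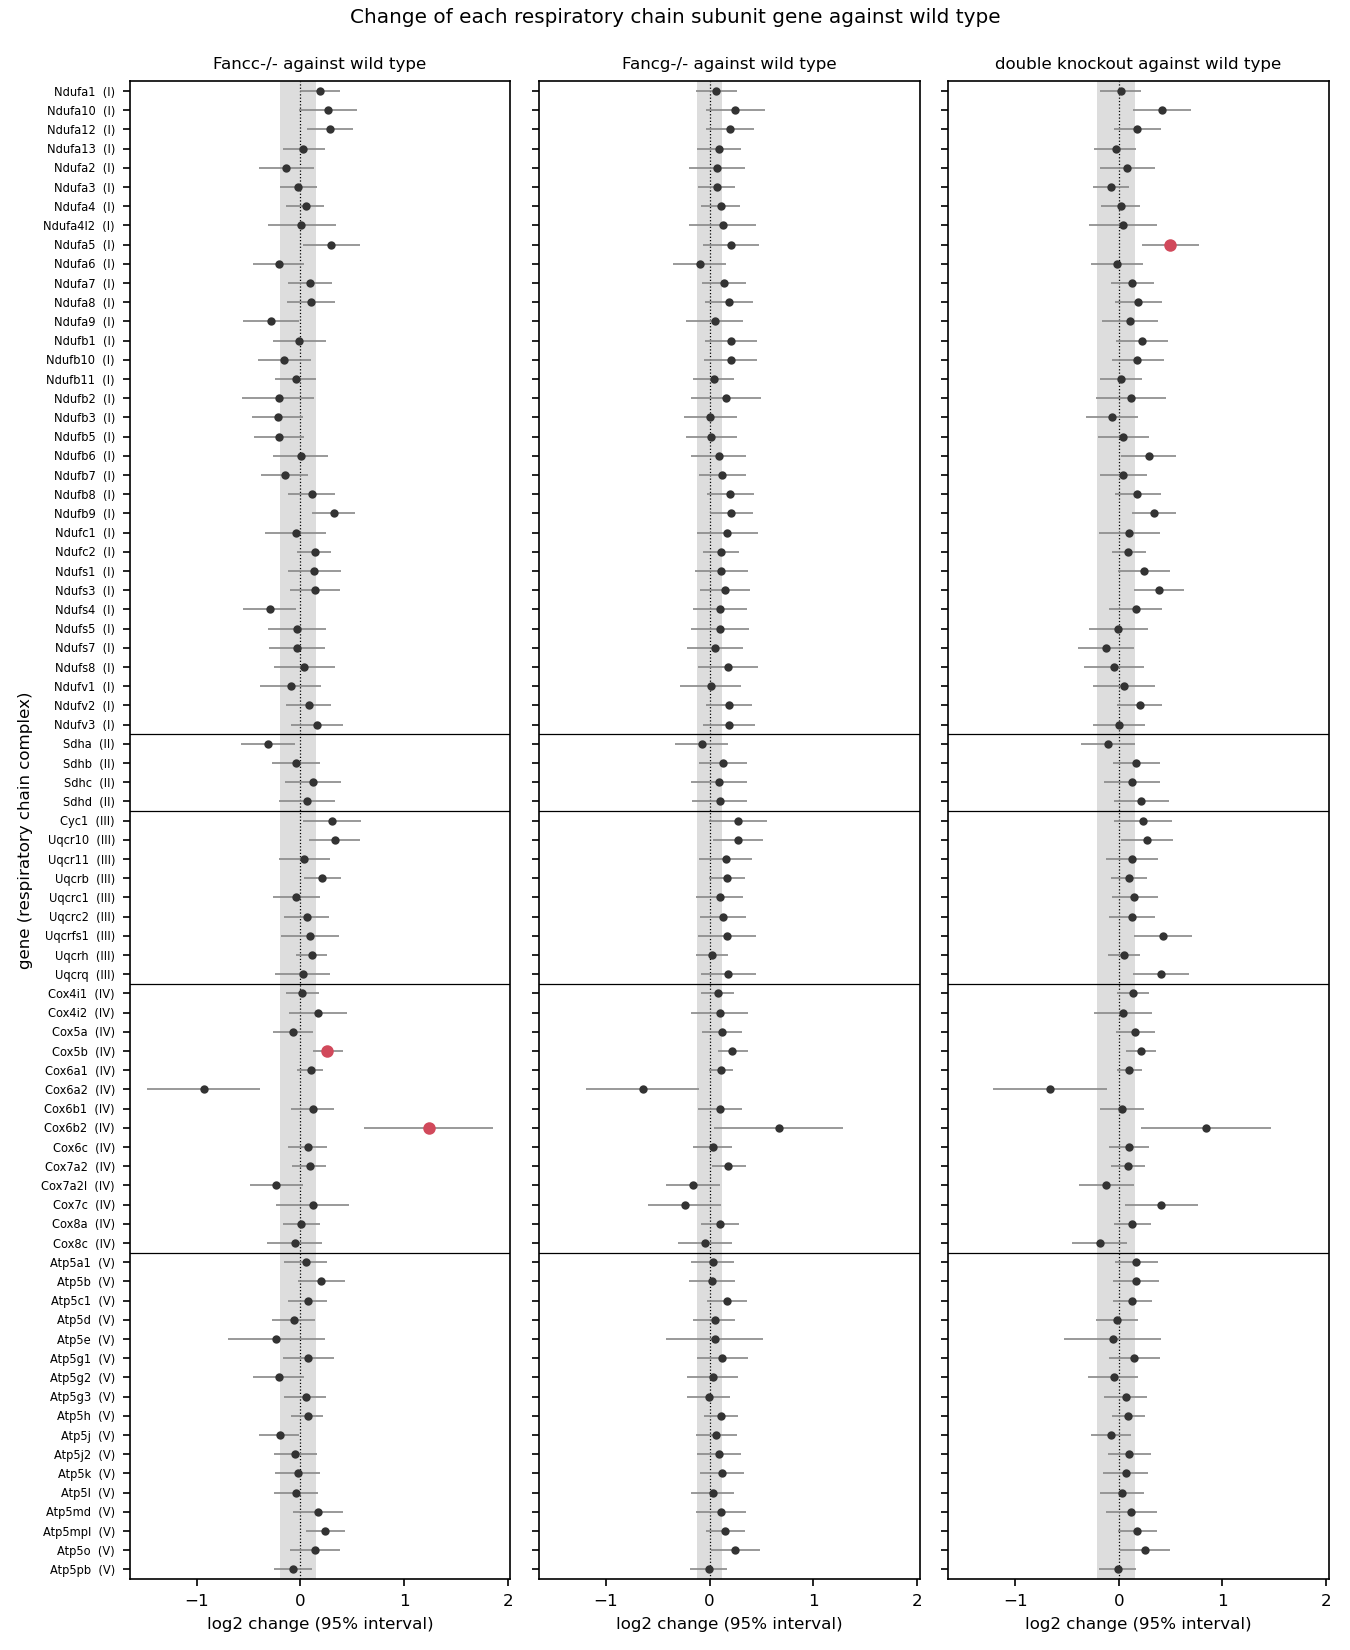
Log2 change of the 78 tested subunit genes (vertical axis, by complex) against wild type in 3 panels, with 95% intervals as lines, the interquartile range of all genes tested as a grey band and genes past the adjusted p threshold in red. Cox6b2 (1.24) and Cox5b (0.26) are red in Fancc-/-, Ndufa5 (0.49) in the double knockout, and Cox6a2 lies farthest to the left in each panel.

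Small shifts ran upward for most genes on the arrays labelled Fancg-/- and in the double knockout, of a size like that between wild-type mice. In Fancc-/- the direction was more mixed. The median change was 0.05 in Fancc-/- with 47 of 78 genes higher, 0.11 on the arrays labelled Fancg-/- with 70 higher, and 0.11 in the double knockout with 62 higher. Over all genes tested the medians were -0.01, 0.01 and -0.01. The subunit genes that were higher are 60.3%, 89.7% and 79.5%, where 48.4%, 52.3% and 47.8% of all genes were higher. These comparisons share the 3 wild-type arrays.

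The arrays give the measure of this shift. As the median log2 difference of the 78 genes from the wild-type mean, replicates 1 to 3 were at 0.10, -0.03 and -0.07 in wild type and at -0.02, 0.04 and 0.07 in Fancc-/-. They were at 0.06, 0.08 and 0.18 on the arrays labelled Fancg-/-, where the stroma, bone and vessel medians were 2.06, 1.38 and 0.93 (-0.35 to 0.56 in wild type), and at 0.05, 0.19 and 0.08 in the double knockout. Wild-type replicate 1 lay among the knockout arrays, with 72 of its 78 genes above the wild-type mean, against 22 and 9 in replicates 2 and 3. The highest arrays were double-knockout replicate 2 and Fancg-/- replicate 3, the array made from 0.91 µg of RNA, with 70 and 73 genes above that mean. The groups overlapped, and the group means were 0.00 ± 0.09 (SD, n = 3) in wild type, 0.03 ± 0.04 in Fancc-/-, 0.11 ± 0.06 on the arrays labelled Fancg-/- and 0.11 ± 0.07 in the double knockout. Without wild-type replicate 1 the median changes were 0.08, 0.15 and 0.16, and without Fancg-/- replicate 3 that of Fancg-/- was 0.09. The medians of all genes tested on the same arrays stayed between -0.04 and 0.05.

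**Figure D2:**
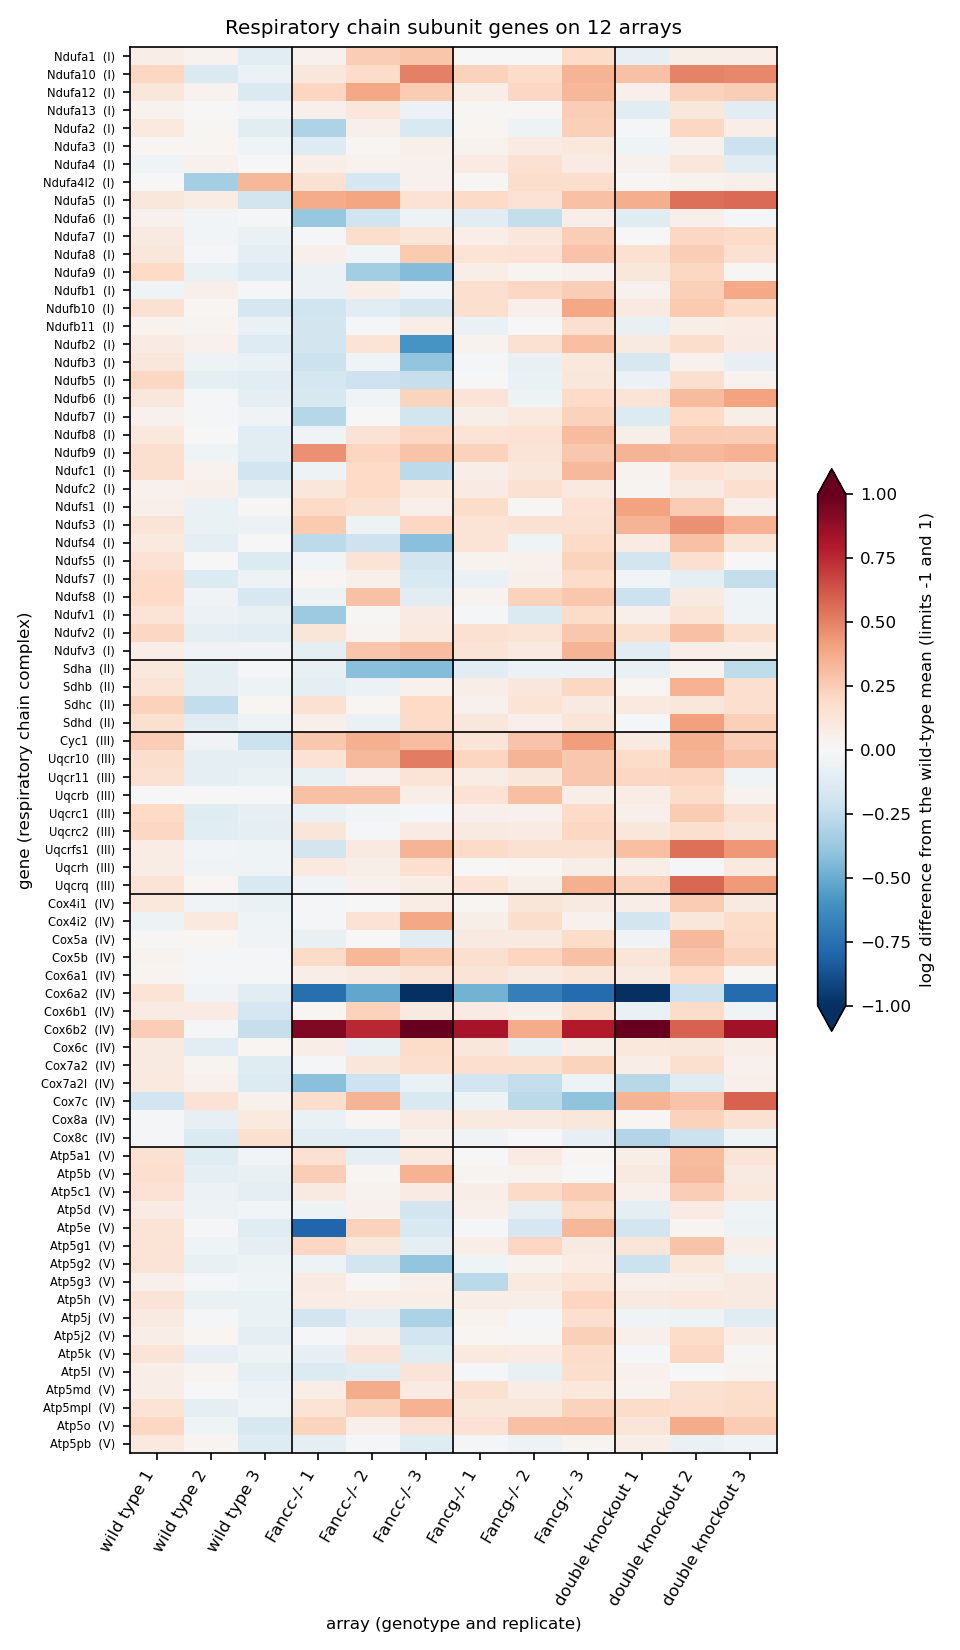
Log2 difference from the wild-type mean (colour, limits -1 and 1) of the 78 tested subunit genes in rows by complex, on the 12 arrays in columns by genotype. Most genes stay pale, while Cox6b2 is red and Cox6a2 blue on all 9 knockout arrays, and wild-type replicate 1 is faintly red along its column.

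**Figure D3:**
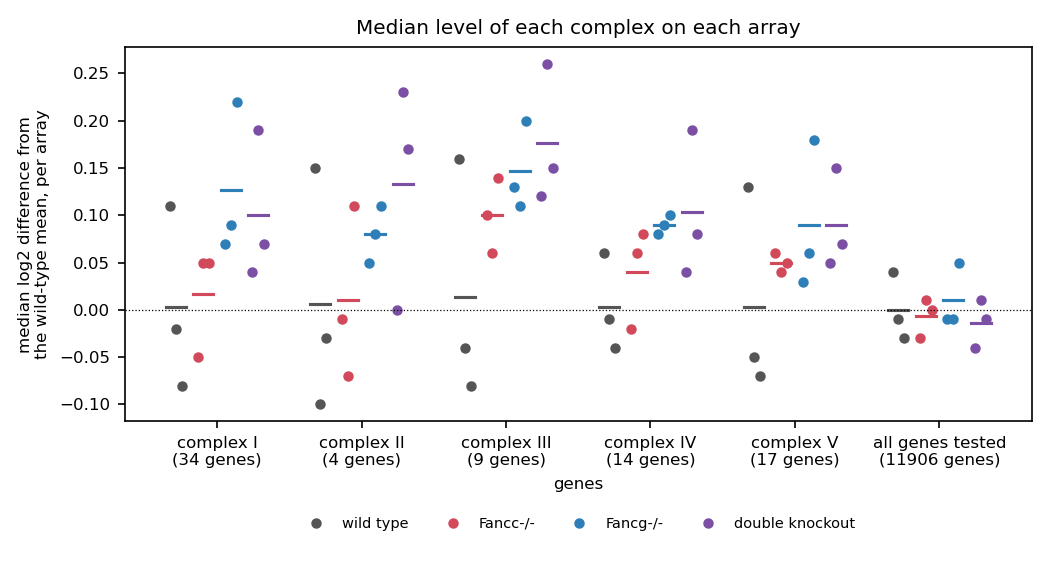
Median log2 difference from the wild-type mean (vertical axis) of the tested genes of each complex and of all genes tested, 1 point per array and a line at each group's mean. Wild-type replicate 1 is the highest wild-type point in every complex, and in complex III the knockout arrays lie between 0.06 and 0.26.

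Complex I, the NADH dehydrogenase, had a median change of 0.01 in Fancc-/- with 18 of 34 genes higher. On the arrays labelled Fancg-/- the median was 0.12 with 33 higher, and in the double knockout 0.10 with 27 higher. Array by array the complex I median spanned -0.08 to 0.11 for wild type, -0.05 to 0.05 for Fancc-/-, 0.07 to 0.22 on the arrays labelled Fancg-/- and 0.04 to 0.19 in the double knockout. All knockout groups overlapped with wild type.

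Ndufa5, an accessory subunit of complex I, rose in the double knockout. Its log2 signal in replicates 1 to 3 was 8.90, 8.86 and 8.60 in wild type and 9.15, 9.34 and 9.35 in the double knockout. The knockout arrays were all above the wild-type arrays, the change was 0.49 ± 0.12 (SE), or 1.41-fold with a 95% interval of 1.17 to 1.70, and the adjusted p was 0.0441. Fancc-/- arrays were at 9.16, 9.18 and 8.93 (change 0.30, adjusted p = 0.202) and the arrays labelled Fancg-/- at 8.98, 8.93 and 9.08 (0.21, adjusted p = 0.836), so all 9 knockout arrays lay above wild type. A second probe set gave 0.28, 0.22 and 0.51 in the same order. The call held without any 1 of the Fancc-/- arrays (adjusted p = 0.0225 to 0.0496) or without double-knockout replicate 1 (0.0175). It was lost without any 1 of the other 8 arrays, with adjusted p = 0.0551 to 0.175: 0.0733, 0.107 and 0.15 without wild-type replicates 1 to 3, 0.0689, 0.0671 and 0.0551 without the arrays labelled Fancg-/-, and 0.165 and 0.175 without double-knockout replicates 2 and 3. The call also ended with Xist as a covariate (0.54, adjusted p = 1), in a comparison where genotype and sex cannot be told apart, as it did with no filter on dim probe sets, with no moderation of the variance, with only the arrays compared and without both Fancg-/- arrays that carry Xist and Eif2s3y (adjusted p = 0.0623 to 0.0919).

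Among the other complex I genes, Ndufb9, an accessory subunit of the membrane arm, was at 10.88, 10.68 and 10.61 in wild type, 11.18, 10.94 and 11.01 in Fancc-/- and 11.06, 11.05 and 11.07 for the double knockout. Both knockout groups lay above wild type without passing the test: the changes were 0.32 ± 0.10 (adjusted p = 0.0882) and 0.34 ± 0.10 (adjusted p = 0.0629). Ndufa12, also an accessory subunit, had a change of 0.29 ± 0.10 in Fancc-/- (adjusted p = 0.156), and the sign turned to -0.05 on its only probe set of unique design. The core subunit Ndufs3, which lies in the arm that faces the matrix, was at 9.66, 9.46 and 9.47 in wild type and 9.87, 9.99 and 9.88 in the double knockout, a change of 0.39 ± 0.11 (adjusted p = 0.0618). Ndufa9, another accessory subunit, was at 10.26, 9.99 and 9.93 in wild type and 10.00, 9.71 and 9.63 in Fancc-/- (-0.28, adjusted p = 0.241).

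Ndufs4, an accessory subunit known from inherited complex I deficiency, was lower in Fancc-/- than in the other groups without passing the test. It was at 9.20, 9.00 and 9.10 in wild type and 8.84, 8.89 and 8.68 in Fancc-/-, with all Fancc-/- arrays below wild type (change -0.29 ± 0.12, adjusted p = 0.192). The arrays labelled Fancg-/- were at 9.24, 9.06 and 9.29 and the double knockout at 9.18, 9.39 and 9.22, which overlapped with wild type. The difference of the double knockout from Fancc-/- was 0.46 ± 0.12 (adjusted p = 0.0909), and that of Fancg-/- from Fancc-/- was 0.39 ± 0.12 (adjusted p = 0.348). On its other 3 probe sets the double knockout differed from Fancc-/- by 0.15, 0.19 and 0.32.

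Complex II, the succinate dehydrogenase of both the citric acid cycle and the chain, had 0 of 4 genes past the test in limma (1 lower in Fancc-/- at an unadjusted p under 0.05). That 1 gene is 25% of 4, where 11.2% of all genes were lower. Sdha, the flavoprotein that oxidizes succinate, was at 10.70, 10.51 and 10.58 in wild type and 10.52, 10.18 and 10.16 in Fancc-/-. Fancc-/- replicates 2 and 3 were below all wild-type arrays and replicate 1 was not. The change was -0.31 ± 0.12 (adjusted p = 0.17), against -0.07 on the arrays labelled Fancg-/- and -0.10 in the double knockout. The iron-sulfur subunit Sdhb had values of -0.04, 0.13 and 0.17 in the same order, with adjusted p of at least 0.351. The membrane anchors Sdhc and Sdhd were at 0.12, 0.09 and 0.13 and at 0.06, 0.10 and 0.21, with adjusted p of at least 0.589 and 0.325. With Xist as a covariate, which there cannot be told apart from genotype, the double-knockout value of Sdhc turned to -0.09.

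Complex III, the cytochrome bc1 complex, had nearly all its genes a little higher in each knockout. Its median change was 0.09 in Fancc-/- with 8 of 9 genes higher, 0.17 on the arrays labelled Fancg-/- with 9 higher and 0.15 in the double knockout with 9 higher, and 0 of 9 passed the test in each comparison. By array the median spanned -0.08 to 0.16 for wild-type mice, 0.06 to 0.14 for Fancc-/- mice, 0.11 to 0.20 for the arrays labelled Fancg-/- and 0.12 to 0.26 for double-knockout mice. Wild-type replicate 1, at 0.16, lay above all Fancc-/- arrays and within the ranges of the other knockouts. At an unadjusted p under 0.05, 3, 1 and 3 genes were higher and 0 lower in limma (33.3%, 11.1% and 33.3% of 9 genes, where 8.53%, 3.34% and 10.5% of all genes were higher).

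Cyc1, the cytochrome c1 that hands electrons to cytochrome c, was at 10.51, 10.23 and 10.05 in wild type and 10.53, 10.62 and 10.57 in Fancc-/-. The Fancc-/- arrays were all above wild type by a narrow margin, and the changes were 0.31 ± 0.13 in Fancc-/- (adjusted p = 0.212), 0.27 on the arrays labelled Fancg-/- and 0.23 in the double knockout. Uqcrb, which lies near the ubiquinone site, was at 12.86, 12.85 and 12.86 in wild type and 13.15, 13.15 and 12.92 in Fancc-/-. It was at 13.00, 13.16 and 12.92 on the arrays labelled Fancg-/- and at 12.93, 13.04 and 12.89 in the double knockout. All 9 knockout arrays were above all wild-type arrays, by changes of 0.21 ± 0.08, 0.17 and 0.10 that did not pass the test (adjusted p = 0.162, 0.719 and 0.5). The small subunit Uqcr10 had changes of 0.33 ± 0.11 (adjusted p = 0.131), 0.27 and 0.27, and a probe set of unique design gave -0.27 in Fancc-/-. Uqcrq, another small subunit, was at 10.39, 10.74 and 10.59 in the double knockout and 10.13, 10.21 and 10.24 in Fancc-/-, a difference of 0.38 (adjusted p = 0.14). Its other 3 probe sets, near the array median with signals of 4.18 to 5.38, gave -0.06, -0.27 and -0.20.

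Complex IV, the cytochrome c oxidase, held both genes that rose in Fancc-/- and the gene with the lowest change. Its median change was 0.08 in Fancc-/-, 0.10 on the arrays labelled Fancg-/- and 0.10 in the double knockout, with 10, 10 and 11 of 14 genes higher.

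Cox6b2 encodes the testis form of the COX6B subunit, which lies on the outer side of the complex. It was at 8.45, 8.19 and 7.98 in wild type, 9.13, 8.96 and 10.24 in Fancc-/-, 9.03, 8.58 and 9.00 on the arrays labelled Fancg-/- and 9.29, 8.80 and 9.05 in the double knockout. All 9 knockout arrays were above wild type, and Fancc-/- replicate 3 stood apart from the rest. The rise in Fancc-/- was 1.24 ± 0.29, or 2.35-fold with a 95% interval of 1.52 to 3.64 (adjusted p = 0.0329). The other changes were 0.67 (1.59-fold, adjusted p = 0.666) and 0.84 (1.79-fold, adjusted p = 0.103). Without Fancc-/- replicate 3 the change was 0.84 (adjusted p = 0.0315), and the gene no longer passed without wild-type replicate 1, 2 or 3 (adjusted p = 0.0549, 0.11 and 0.132) or Fancg-/- replicate 1 (0.0516). Cox6b2 has 1 probe set. Its partner Cox6b1, made in most tissues, was at 12.11, 12.11 and 11.86 in wild type and 12.05, 12.26 and 12.12 in Fancc-/-, with changes of 0.12, 0.10 and 0.03 (adjusted p of at least 0.543).

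Cox5b, the zinc-binding subunit of the oxidase, was at 12.56, 12.51 and 12.51 in wild type and 12.72, 12.86 and 12.79 in Fancc-/-. The arrays labelled Fancg-/- were at 12.69, 12.74 and 12.82 and the double knockout at 12.65, 12.81 and 12.76. All 9 knockout arrays were again above wild type, and the change was of similar size in each group: 0.26 ± 0.07 in Fancc-/- (1.20-fold, interval 1.09 to 1.33, adjusted p = 0.0431), 0.22 (adjusted p = 0.359) and 0.21 (adjusted p = 0.0774). Of its 6 probe sets, 5 gave changes of 0.15 to 0.32 in Fancc-/- and 1 gave -0.04. The mean of the 6 gave 0.20 (adjusted p = 0.232), and the call held in 1 of the 12 fits that leave out an array, that without double-knockout replicate 1 (adjusted p = 0.0309). Each other array ended the call when left out, with adjusted p from 0.0511 (without Fancg-/- replicate 3) to 0.148 (without wild-type replicate 2).

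Cox6a2, the COX6A form of heart and skeletal muscle, was the only one of the 78 genes with all 9 knockout arrays below wild type. Its log2 signal was 7.88, 7.71 and 7.64 in wild type, 6.99, 7.22 and 6.22 in Fancc-/-, 7.27, 7.06 and 6.97 on the arrays labelled Fancg-/- and 6.75, 7.53 and 6.97 in the double knockout. The lowest array was Fancc-/- replicate 3. The changes were -0.93 ± 0.25 (adjusted p = 0.0588), -0.64 (adjusted p = 0.614) and -0.66 (adjusted p = 0.135), and a second probe set gave -1.07, -0.87 and -0.70. The value in Fancc-/- was past the threshold without Fancc-/- replicate 2 (adjusted p = 0.0301) or double-knockout replicate 1 or 2 (0.0437 and 0.046), and it was -0.64 without Fancc-/- replicate 3 (adjusted p = 0.117). Its partner Cox6a1, made in most tissues, was at 13.03, 12.99 and 12.98 in wild type and 13.07, 13.09 and 13.13 in Fancc-/-, with changes of 0.10, 0.11 and 0.10 (adjusted p of at least 0.315).

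**Figure D4:**
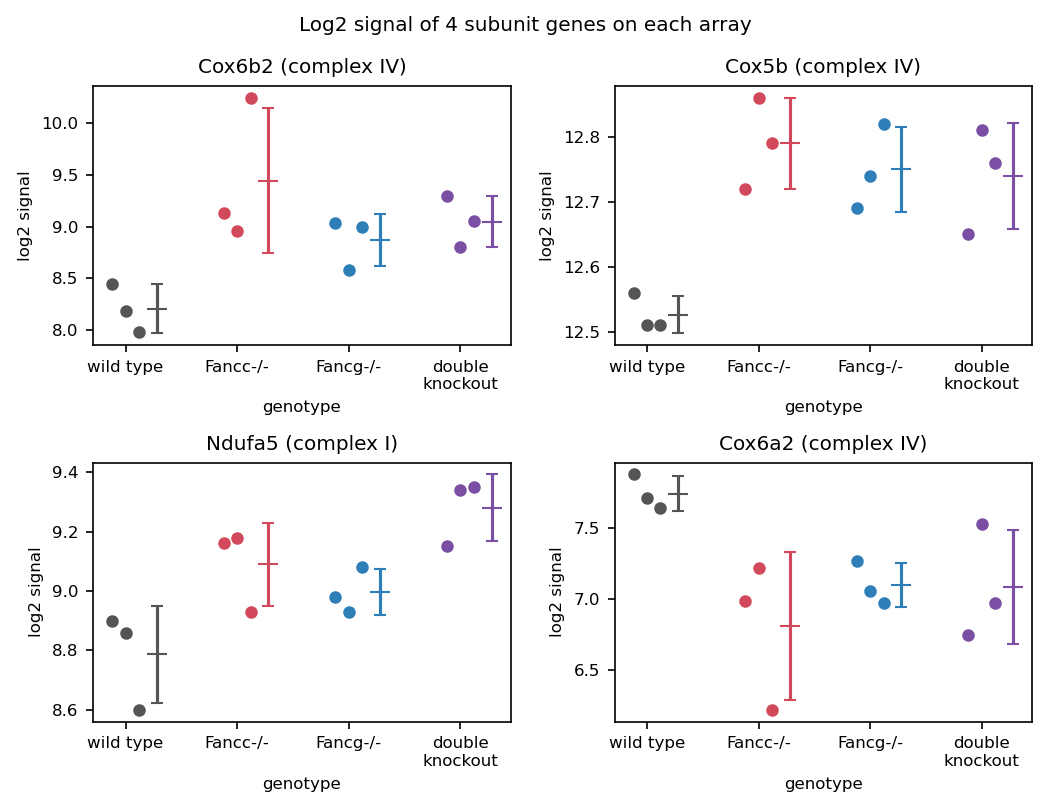
Log2 signal (vertical axis) of Cox6b2, Cox5b, Ndufa5 and Cox6a2 on each array by genotype, with the mean ± SD of 3 mice beside the points and a vertical scale of its own in each panel. The 9 knockout arrays lie above wild type for Cox6b2, Cox5b and Ndufa5 and below it for Cox6a2.

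Genes whose 9 knockout arrays all lay on 1 side of the 3 wild-type arrays were counted over the whole array. Above wild type there were 4 of 78 (5.13%: Cox5b, Cox6b2, Ndufa5 and Uqcrb), where 2.44% of all genes tested were, and below it 1 of 78 (1.28%, Cox6a2), where 3.7% were. The counts rest on few genes and on the same 3 wild-type arrays.

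Marrow cell markers moved on the same arrays as Cox6a2 and Cox6b2. Markers of plasmacytoid dendritic cells, a list added after the values had been seen, had array medians of 0.24, -0.15 and -0.14 in wild type and -1.15, -0.90 and -2.61 in Fancc-/-. They were at -0.73, -1.24 and -0.69 on the arrays labelled Fancg-/- and at -0.72, -0.43 and -1.0 in the double knockout. Of the 8 genes, 4 fell in Fancc-/-, 0 on the arrays labelled Fancg-/- (5 lower at an unadjusted p under 0.05 in limma) and 2 in the double knockout. These are 50%, 0% (62.5%) and 25%, where 2.36%, 0.042% (3.65%) and 3.02% of all genes were. Fancc-/- replicate 3 was the lowest array for this list as for Cox6a2, and double-knockout replicate 2 was the highest knockout array for both. The order differed elsewhere. Among the arrays labelled Fancg-/-, replicate 3 was the lowest for Cox6a2 (6.97) and the highest for the list (-0.69). In the double knockout the lowest array was replicate 1 for Cox6a2 (6.75) and replicate 3 for the list (-1.0). Fancc-/- replicate 3 was also the lowest array for the B cell markers (-2.78) and for the T and NK cell markers (-0.71). Siglech, a receptor of these cells, was at 8.77, 8.31 and 8.33 in wild type and 7.31, 7.30 and 5.62 in Fancc-/- (-1.73 ± 0.44, adjusted p = 0.0459).

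The 7 tested skeletal muscle markers had median changes of 0.07, 0.08 and -0.09, with 0 past the test (2 higher in Fancc-/- at an unadjusted p under 0.05). Those 2 are 28.6% of the list, where 8.53% of all genes were higher. The 20 erythroid markers had array medians of -0.16 to 0.19 in wild type and 0.77 to 1.35 in Fancc-/-. They were 0.57 to 0.80 on the arrays labelled Fancg-/- and 0.35 to 1.24 in the double knockout, with Fancc-/- replicate 3, the highest array for Cox6b2, the lowest of its group at 0.77. B cell markers were at -2.78 to -1.94, -2.02 to -0.63 and -2.34 to -1.79 in the 3 knockout groups. The part of these cell types in Cox6a2 and Cox6b2 was not tested.

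**Figure D5:**
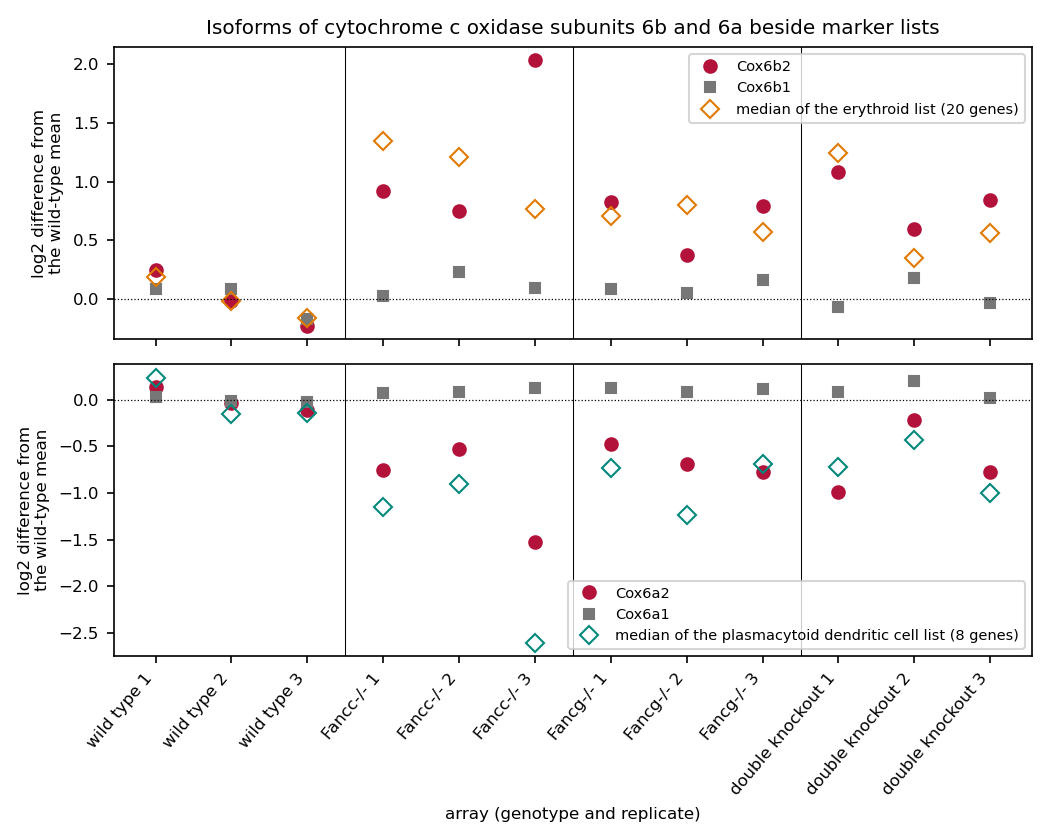
Log2 difference from the wild-type mean on each of the 12 arrays, for Cox6b2 and Cox6b1 beside the median of 20 erythroid markers (top) and for Cox6a2 and Cox6a1 beside the median of 8 plasmacytoid dendritic cell markers (bottom). Cox6b1 and Cox6a1 stay near 0, Cox6b2 peaks on Fancc-/- replicate 3, and Cox6a2 and the dendritic cell median are lowest on that array.

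The other isoforms did not pass the test in a comparison with wild type. Cox4i1, the usual form of the COX4 subunit, had changes of 0.02, 0.08 and 0.14, and Cox4i2, its lung form, had 0.17, 0.10 and 0.04. Cox7a2 was at 0.09, 0.18 and 0.09, and Cox7a2l, which takes part in joining complexes III and IV into supercomplexes, at -0.23, -0.16 and -0.12. A second bright probe set of Cox7a2l, not tested, gave -0.45 in Fancc-/-, with arrays at 9.59, 9.52 and 9.78 below the 10.15, 10.06 and 10.04 of wild type, and its other one -0.18. The muscle form Cox7a1, with values of 3.84 to 4.29, was too dim to be tested. Cox8a was at 0.01, 0.10 and 0.13 and the testis form Cox8c at -0.05, -0.04 and -0.18. Cox8b, another form of the COX8 subunit, was too dim as well (3.77 to 4.63). Ndufa4, named for complex I but known to be part of complex IV, was at 0.05, 0.11 and 0.02, and Ndufa4l2, a relative known for induction under low oxygen, at 0.01, 0.13 and 0.04. The adjusted p values of these genes were at least 0.283.

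Cox7c, a small subunit of the oxidase, had the smallest p of the 78 genes between the double knockout and the arrays labelled Fancg-/-. It was at 6.64, 6.98 and 6.88 in wild type, 7.01, 7.17 and 6.68 in Fancc-/-, 6.78, 6.56 and 6.43 on the arrays labelled Fancg-/- and 7.17, 7.12 and 7.42 in the double knockout. The double-knockout arrays were above all those labelled Fancg-/-, by 0.65 ± 0.16 (adjusted p = 0.174). A second, dimmer probe set gave 0.64.

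Complex V, the ATP synthase, had 0 of 17 genes past the test in any comparison with wild type (in limma, 1 higher in each and 1 lower in Fancc-/- at an unadjusted p under 0.05). Each such gene is 5.88% of 17. Of all genes, 8.53%, 3.34% and 10.5% were higher, and 11.2% were lower in Fancc-/-. The median change of complex V was 0.05 in Fancc-/- with 9 higher, 0.06 on the arrays labelled Fancg-/- with 15 higher and 0.09 in the double knockout with 12 higher. Atp5mpl, a small membrane subunit, was at 11.49, 11.26 and 11.31 in wild type and 11.49, 11.58 and 11.70 in Fancc-/-, a change of 0.24 ± 0.09 (adjusted p = 0.147). Atp5j, the coupling factor of the stalk, was at 11.16, 11.05 and 11.01 in wild type, 10.88, 10.98 and 10.76 in Fancc-/- and 11.11, 11.06 and 11.24 on the arrays labelled Fancg-/-. The Fancc-/- arrays were below all others of these groups, with a change of -0.20 ± 0.09 (adjusted p = 0.236).

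Setting the knockouts against each other gave 0 of 78 genes past the test in limma in all 3 comparisons. For the double knockout against Fancc-/-, 0.0084% of all genes rose and 0% fell, and 9 subunit genes were higher and 0 lower at an unadjusted p under 0.05 (11.5% and 0%, where 10.1% and 9.56% of all genes were). The median difference was 0.08 with 57 of 78 higher, against -0.02 over all genes tested. The smallest p belonged to Ndufs4 (0.46), Uqcrq (0.38) and Ndufa9, with a difference of 0.39 (adjusted p = 0.141).

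For the double knockout against Fancg-/-, 0% of all genes rose and 0% fell, and 2 subunit genes were higher and 0 lower at an unadjusted p under 0.05 (2.56% and 0%, against 6.64% and 7.75% of all genes). The median difference was -0.01 with 38 of 78 higher. Behind Cox7c, Ndufs3 differed by 0.24 (adjusted p = 0.352) and Ndufa5 by 0.28 (adjusted p = 0.33). For Fancg-/- against Fancc-/-, 0.0252% of all genes rose and 0.084% fell, and 6 subunit genes were higher and 1 lower at an unadjusted p under 0.05 (7.69% and 1.28%, against 5.13% and 3.91%). The median was 0.08 with 55 of 78 higher. Ndufs4 (0.39), Ndufb10, an accessory subunit of complex I (0.36, adjusted p = 0.392), and Atp5j (0.26, adjusted p = 0.419) had the smallest p. These comparisons share arrays with each other and with those against wild type.

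The interaction sets the difference of Fancc-/- from wild type against that of the double knockout from the arrays labelled Fancg-/-, of which replicates 1 and 3 had Fancg signal near wild type. It was past the threshold for 0 of 78 subunit genes and for 0.0084% of all genes. At an unadjusted p under 0.05 there were 5 subunit genes in limma, or 6.41%, where 14.9% of all genes were. The first difference was 1.24 for Cox6b2, 0.26 for Cox5b, -0.93 for Cox6a2 and 0.21 for Uqcrb, and the second 0.18, -0.01, -0.02 and -0.07. The interaction was -1.06 ± 0.41 for Cox6b2 (adjusted p = 0.263), -0.27 for Cox5b (adjusted p = 0.224), 0.91 for Cox6a2 (adjusted p = 0.265) and -0.28 for Uqcrb (adjusted p = 0.284). These genes had the smallest interaction p, and none passed. Leaving out replicates 1 and 3 of the arrays labelled Fancg-/- gave values of -0.77, -0.26, 0.95 and -0.41. That leaves 1 array there, which is assumed to vary like the other groups.

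Genes that build or feed the chain were read from lists of known members. Of 42 tested assembly factors, 1 rose and 1 fell in Fancc-/- and 2 rose in the double knockout, with median changes of -0.03 and 0.05. That is 2.38% and 2.38% in Fancc-/- and 4.76% in the double knockout, beside the 2.18% and 2.36% and the 2.27% of all genes given above. Cox11, which delivers copper to the oxidase, was at 6.76, 6.39 and 6.34 in wild type, 7.07, 7.08 and 7.33 in Fancc-/- and 6.97, 7.10 and 7.40 for the double knockout. It rose in both, by 0.67 ± 0.16 (adjusted p = 0.0339) and 0.66 (adjusted p = 0.0381), with all arrays above wild type. Uqcc1, which serves the making of cytochrome b, fell by 0.54 ± 0.14 on the log2 scale in Fancc-/- (adjusted p = 0.0431), from 7.34, 7.10 and 7.20 to 6.48, 6.73 and 6.79. Ndufaf4, a complex I assembly factor, rose by 0.59 ± 0.13 in the double knockout (adjusted p = 0.0305), from 8.20, 8.61 and 8.27 to 8.88, 8.96 and 9.01.

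These calls depended on the processing and on single arrays. With the mean of all probe sets of a gene, Cox11 had 0.33 in both groups (adjusted p = 0.152 and 0.121), Uqcc1 -0.23 (adjusted p = 0.31) and Ndufaf4 0.21 (adjusted p = 0.49). With Xist as a covariate the double-knockout values were 0.34 for Cox11 and 0.62 for Ndufaf4 (adjusted p = 1 for both). Xist and genotype cannot be told apart in that comparison, so this fit cannot judge these calls. On probe sets of unique design Uqcc1 had -0.28 (adjusted p = 0.497). Over all 26 alternatives the call held in 14 for Cox11 in each group, 6 for Uqcc1 and 16 for Ndufaf4. Leaving out 1 array ended the Cox11 call in Fancc-/- for wild-type replicates 2 and 3, Fancc-/- replicates 1 and 3, Fancg-/- replicates 1 and 2 and double-knockout replicate 2 (adjusted p = 0.0502 to 0.142). In the double knockout it ended without wild-type replicates 2 and 3, Fancg-/- replicates 1 and 2 and double-knockout replicates 2 and 3 (0.0562 to 0.164). The Uqcc1 call held only without Fancc-/- replicate 3 or double-knockout replicate 1 or 2, and was at 0.05 to 0.128 without each of the other 9. Ndufaf4 was lost without any wild-type array, Fancg-/- replicate 2 or double-knockout replicate 2 or 3 (0.0508 to 0.13).

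In the list of 18 import and carrier genes, 1 rose in Fancc-/- and 2 in the double knockout (5.56% and 11.1%, with all genes at 2.18% and 2.27%). Slc25a39, a carrier of the inner membrane known for glutathione import and for its part in heme synthesis, was at 11.99, 11.89 and 11.83 in wild type and 12.76, 12.81 and 13.01 in Fancc-/-. It rose by 0.96 ± 0.10 (adjusted p = 0.000683), beside the erythroid markers that rose in the same mice. Timm17a and Timm23, parts of the inner membrane import channel, rose in the double knockout by 0.74 ± 0.12 (adjusted p = 0.0126) and 0.43 ± 0.09 (adjusted p = 0.029). Timm17a was at 8.80, 8.64 and 8.64 in wild type and 9.23, 9.58 and 9.49 in the double knockout, without overlap. Slc25a39 passed in 25 of 26 alternatives and was 0.43 on its probe set of unique design (adjusted p = 0.0639). Timm17a passed in 21 and Timm23 in 17. With Xist as a covariate, which here cannot be told apart from genotype, the changes of Timm17a and Timm23 were 0.73 and 0.32 (adjusted p = 1 for both). Both were also lost without wild-type replicate 2 or 3 or double-knockout replicate 2 or 3, and Timm23 without wild-type replicate 1 (adjusted p = 0.0535 to 0.0671 for Timm17a and 0.0615 to 0.123 for Timm23).

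Of 15 regulators of mitochondrial biogenesis, 1 fell in both Fancc-/- and double-knockout marrow: Polg, the polymerase of mitochondrial DNA. It went from 7.65, 7.92 and 7.46 to 7.01, 7.23 and 6.67 and to 7.14, 7.03 and 6.84, by -0.70 ± 0.18 (adjusted p = 0.0429) and -0.67 (adjusted p = 0.049). This is 6.67% of 15 genes, where 2.36% and 3.02% of all genes fell. The call held in 9 of 26 alternatives in Fancc-/- and 10 of 26 in the double knockout. With the mean of all probe sets Polg had -0.25 and -0.14 (adjusted p = 0.243 and 0.518). With Xist as a covariate it had -0.29 in the double knockout (adjusted p = 1), where Xist cannot be told apart from genotype. In Fancc-/- the call was kept only without Fancc-/- replicate 2, Fancg-/- replicate 3 or double-knockout replicate 1, and in the double knockout only without Fancc-/- replicate 2 or 3 or double-knockout replicate 1, with adjusted p of 0.0562 to 0.181 and 0.0533 to 0.192 without any other array.

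Among 13 glycolysis genes, Pfkm, a phosphofructokinase, rose by 0.89 ± 0.14 in Fancc-/- (adjusted p = 0.00633) and by 0.74 in double-knockout marrow (adjusted p = 0.0204), and Hk1, a hexokinase, rose in Fancc-/- (0.48 ± 0.12, adjusted p = 0.0393). Pfkm was at 7.46, 7.43 and 7.48 in wild type and 8.59, 8.29 and 8.17 in Fancc-/-. The 2 and 1 risen genes are 15.4% and 7.69% of the list, where 2.18% and 2.27% of all genes rose. Pfkm passed in all 26 alternatives in Fancc-/-. In the double knockout it passed in 19. It was lost with no moderation (adjusted p = 0.0555) and without any wild-type array or double-knockout replicate 2 or 3 (adjusted p = 0.0535 to 0.0823). With Xist as a covariate, which there cannot be told apart from genotype, the change was 0.94 (adjusted p = 1). Hk1 passed in 9 of 25, and of the fits without 1 array in those without Fancc-/- replicate 3 or double-knockout replicate 1 (0.0543 to 0.138 without any other). The median of the glycolysis list in Fancc-/- was -0.17, with 4 of 13 genes higher.

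Of 12 citric acid cycle genes, 13 genes for cytochrome c and coenzyme Q synthesis and 9 genes of mitochondrial dynamics and clearance, 0 passed the test in limma in any comparison with wild type. At an unadjusted p under 0.05 these 3 lists had 1, 0 and 2 genes higher and 1, 0 and 0 lower in Fancc-/-, and 3, 2 and 1 higher in the double knockout. In Fancc-/- these are 8.33%, 0% and 22.2% higher and 8.33%, 0% and 0% lower, where 8.53% and 11.2% of all genes were. In the double knockout they are 25%, 15.4% and 11.1%, where 10.5% of all genes were higher. Idh3a, of the citric acid cycle, had 0.32, 0.34 and 0.46 in Fancc-/-, on the arrays labelled Fancg-/- and in the double knockout (adjusted p = 0.17, 0.567 and 0.0522). Among the genes of coenzyme Q synthesis, Coq4 had 0.36 in the double knockout (adjusted p = 0.115) and Coq3 0.44 on the arrays labelled Fancg-/- (adjusted p = 0.648). Pink1, which marks damaged mitochondria for removal, was at 8.65, 8.19 and 8.06 in wild type and 8.70, 9.13 and 9.50 in Fancc-/- (0.81 ± 0.23, adjusted p = 0.0705). On the arrays labelled Fancg-/- 0 genes of any of these 7 lists passed in limma. At an unadjusted p under 0.05, 3 import genes and at most 1 gene of each other list were higher there, and 1 assembly factor was lower. That is 16.7% of the import list and 0% to 8.33% of the others higher, where 3.34% of all genes were. The assembly factor is 2.38% of its list, where 3.65% of all genes were lower. The subunits encoded by mitochondrial DNA were not analysed here.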

How the data were processed

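RNA of 12 mice was measured on Affymetrix arrays. The authors deposited log2 signals per probe set, made with RMA, and Partek is also named, per the submitters' processing notes, without versions. RMA sets all arrays to a common distribution, and precision is limited by 3 arrays per group.

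Of 45101 probe sets, the 34945 with 1 gene symbol in the platform annotation were used, and the 932 with several symbols, which include some subunit genes and near copies, were not. Each of 18193 genes was read on its probe set with the highest mean. Genes above the array median (percentile 50) on at least 3 arrays were tested (11906). All 82 subunit genes matched RefSeq by Entrez ID. A total of 48 have several probe sets. For 44 genes, more than 1 probe set was above the array median on at least 3 arrays. On these brighter probe sets, 20, 31 and 30 genes had a single sign in Fancc-/-, Fancg-/- and double knockout against wild type.

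limma 3.58.1 in R 4.3.3 fitted all 12 arrays together, with a variance trend and 8 residual degrees of freedom, for 6 comparisons and the interaction. Tests were 2-sided with Benjamini-Hochberg adjustment over all genes tested. The code was tested on simulated data.

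Named genes are the subunit genes past the threshold (up to 10 per direction) or the 3 smallest p in a comparison, the 2 smallest p per complex in Fancc-/-, complex II, Cyc1 and the isoforms, and up to 4 genes (or the 1 smallest p) per pathway list. Siglech was added after its values were seen. Members and lists were chosen with earlier results of these data known. Alternatives covered the filter, the probe set of a gene, array scaling, the variance model, array weights, the arrays fitted, Xist as a covariate, a block for the replicate number and fits without 1 array. Probe sets of unique design are those without _s_, _x_ or _a_ in their name.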

Additional observations from a re-analysis of the deposited data

How the results depend on the processing

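The count of subunit genes past the test in Fancc-/- against wild type, 2, ran from 0 to 3 when 1 array was left out, with 0 without wild-type replicate 1, 2 or 3 or Fancg-/- replicate 1. It was 1 with no filter on dim probe sets, 1 on probe sets of unique design, 1 with no variance trend, and 0 with no moderation, with only the arrays of the groups compared or with Xist as a covariate. In the double knockout against wild type the count of 1 ran from 0 to 8 when 1 array was left out, with 8 without Fancc-/- replicate 3 (10.3% of these genes, 11.8% of all genes) and 7 without double-knockout replicate 1 (8.97% and 15.6%). It was 0 with no filter or no moderation, 3 with arrays centred on their medians and 2 with only the arrays compared. It was 0 with Xist as a covariate as well, which cannot be told apart from genotype in this comparison. With array weights it was 17 (21.8%, where 28.4% of all genes were called). Array weights also gave 5 genes for the double knockout against Fancc-/- and 4 against Fancg-/-, where leaving out 1 array gave 0 to 3 and 0 to 1. For both comparisons the highest count came without double-knockout replicate 1. Counts for Fancg-/- against wild type and against Fancc-/- were 0 in every fit. The median change in Fancc-/- moved to 0.12 with arrays centred on their medians, where that of all genes was 0.07, and the other medians moved by less than the SD between replicate arrays (0.07).

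Both arrays labelled Fancg-/- with Xist and Eif2s3y signal were also left out together, an alternative chosen after seeing the data: the counts in Fancc-/- and in the double knockout were then 0 and 0, with adjusted p = 0.0716 for Cox6b2, 0.0837 for Cox5b and 0.0919 for Ndufa5. In that fit the Fancg-/- median was 0.08.

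Of 95 values of named genes, 19 changed sign in at least 1 alternative, and 5 of these had a change above its SE. Signs turned among these 5 for Uqcrq in the double knockout against Fancc-/- (-0.04 with the mean of all probe sets, -0.06 on unique ones). They also turned for Ndufa12 (-0.05) and Uqcr10 (-0.27) in Fancc-/- and for Mfn1 on the arrays labelled Fancg-/- (-0.09), all on unique probe sets, and for Sdhc in the double knockout with Xist as a covariate (-0.09). The other 14 were changes below their SE, with values from -0.28 (Cox4i2 in the double knockout) to 0.13. They include Cox6b1 and Ndufa4l2 in the double knockout (-0.06 and -0.13) and Ndufa4l2 and Cox8c in Fancc-/- (-0.15 and 0.05). The cause was not tested.

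With the replicate number as a block, 2 subunit genes passed in Fancc-/- (Cox6b2 with adjusted p = 0.031, and Cox6a2 with 0.0454, while Cox5b had 0.0551) and 0 in the double knockout (Ndufa5 with 0.0642). Arrays with the same number correlated at -0.37 to 0.20 in their deviations over 18 pairs. Arrays with different numbers correlated at -0.23 to 0.36 over 36 pairs. The labels do not say that the numbers pair mice, and these correlations cannot settle it.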
